A study of Mus musculus with 27 samples.

Results

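The mRNA of 9 cytokine genes was followed in mouse splenic B cells: Il1a, Il1b, Il6, Tnf, Lta, Ltb, Il12a, Il10 and Tgfb1. They were chosen by name from the 54532 genes of the count tables, and each was present once. All B cells came from spleens of wild-type (WT) C57BL6 mice, were isolated by negative selection (which removes other cells with antibodies) and were cultured in 48-well plates. A time of 3 h was given for all libraries, described for stimulated B cells as 3 h after stimulation. In the first experiment, B cells were left unstimulated or stimulated with lipopolysaccharide (LPS, the T-independent stimulus, which acts through Toll-like receptors). Others were stimulated with IL-4+anti-CD40 (the T-dependent stimulus, which stands in for help by T cells). Either stimulus was also given to B cells treated with 1 μM disulfiram (DSF, a drug that inhibits aldehyde dehydrogenase). These 5 groups had 4 libraries each. In the second experiment, 7 conditions had 1 library each: the same 5 and either stimulus with 1 μM ibrutinib, an inhibitor of the B cell kinase Btk. B cells given either drug were described as pre-treated, without a duration. The groups without a drug carried the vehicle DMSO in their names, and no group was given a drug without a stimulus. The libraries of the first experiment were described as biologically independent samples, without saying whether these were separate mice or cultures, and p-values measure the spread between them.

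B cells are known for antibody production, but they also secrete cytokines that direct T cells, macrophages and the stroma of lymphoid organs. Interleukin-1, IL-6 and tumour necrosis factor (TNF) promote inflammation, and their genes are rapidly induced by Toll-like receptors through NF-κB. Lymphotoxin made by B cells maintains the architecture of spleen and lymph nodes, and IL-10 and transforming growth factor-β1 (TGF-β1) restrain immune responses. Several of the proteins are regulated after transcription, so mRNA does not give the secreted amount: pro-IL-1β is cut by caspase-1, membrane TNF is shed by ADAM17 and TGF-β1 is released from a latent complex.

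Libraries of the first experiment held 17804851 to 23632992 counts each, and those of the second 16049295 to 24619776 counts. The B cell markers Ms4a1, Cd79a, Cd79b, Pax5, Cd22, Blk and Fcer2a were all present and summed to 2937 to 3194 CPM (counts scaled to library size) with LPS and DSF, the lowest of the first experiment, and to 4731 to 8432 CPM in unstimulated B cells. T cell markers summed to 27.8 to 51.6 CPM across the first experiment, and NK cell markers to 1.40 to 5.56 CPM. The 12 monocyte and macrophage markers summed to 575 to 705 CPM in unstimulated B cells, to 176 to 200.1 CPM with LPS and to 184 to 208 CPM with IL-4+anti-CD40, and among them Lyz2, the lysozyme of myeloid cells, was at 71.6, 73.4, 83.8 and 74.6 CPM with LPS. Complement C1qa and C1qb, which define resident macrophages, did not exceed 0.497 CPM in stimulated libraries of the first experiment, but C1qb was between 1.30 and 4.20 CPM in the second. Both were higher on average in unstimulated B cells of the first experiment. Among the monocyte and macrophage markers that changed there with LPS, they fell furthest. Ly6g, which defines neutrophils, did not exceed 0.121 CPM in the first experiment and 0.142 CPM in the second. Myeloid cells express Il1a, Il1b, Il6, Tnf and Il10 as well, and a contribution of such cells to these mRNAs was not tested. In bulk RNA, fewer cells of a type and less mRNA per cell cannot be told apart.

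The 4 unstimulated libraries were not alike. Between replicates 1 and 2 on one side and replicates 3 and 4 on the other, 14.5% to 14.8% of 14426 genes stood 2-fold or more apart, against 1.89% and 2.47% within these pairs. Among the cytokines, Il1a, Il1b, Il10, Tnf, Lta and Ltb separated between these pairs without overlap, whereas Tgfb1 and Il12a did not. Il6 separated too, but on only 16, 7, 0 and 2 counts in replicates 1 to 4. Il1b had 16.01, 16.3, 1.21 and 1.31 FPKM (a level normalized for transcript length and sequencing depth, which can be compared between genes) in replicates 1 to 4, and Il10 had 2.15, 2.61, 0.339 and 0.234 FPKM. Lta and Ltb lay the other way round: Lta had 4.42, 6.07, 26.3 and 26.3 FPKM and Ltb 191, 168, 363 and 362 FPKM. The B cell markers also differed between the pairs, with average sums of 4761 CPM in replicates 1 and 2 and 8361 CPM in replicates 3 and 4. Markers of marginal zone and B-1 B cells summed to 620 and 1525 CPM. Cd14, the LPS co-receptor of myeloid cells, was at 30.1, 31.3, 1.39 and 1.80 CPM in the same libraries, the neutrophil markers summed to 67.8 CPM on average in replicates 1 and 2 and 25.7 CPM in replicates 3 and 4, and Lyz2 was at 365, 354, 522 and 548 CPM. Csf1r, also of the monocyte and macrophage list, was at 108, 106, 71.6 and 67.1 CPM. S100a8, of the neutrophil list, was at 12.2, 11.8, 2.45 and 4.32 CPM. The whole monocyte and macrophage list summed to 583 CPM on average in replicates 1 and 2 and 693 CPM in replicates 3 and 4. Thus Cd14, Csf1r and S100a8 were higher where Il1b and Il10 were higher, while Lyz2 was higher where these cytokines were lower. Replicates 3 and 4 also stood apart from replicates 1 and 2, to a smaller extent, in B cells stimulated with IL-4+anti-CD40. No day, batch or mouse is named for any library, so values for 1 pair alone are given beside many of those with all 4 libraries. The pairs were chosen after seeing the data, and p-values for 1 pair alone leave out the spread between the pairs. No such division was seen with LPS, where 2.55% to 3.11% of genes stood 2-fold or more apart between any 2 libraries.

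Of the 9 genes, Tnf, Lta and Ltb are neighbours on chromosome 17 (mm10): Ltb spans chr17:35194439-35196320 on the plus strand, and 3060 bases further Tnf spans chr17:35199381-35202007 on the minus strand, followed after 1157 bases by Lta at chr17:35203165-35205351, also on the minus strand. Il1a (chr2:129299610-129309972) and Il1b (chr2:129364570-129371139) lie on the minus strand of chromosome 2 with 54597 bases between them. Il6 lies at chr5:30013114-30019981, Il10 at chr1:131019845-131024974, Il12a at chr3:68690644-68698547 and Tgfb1 at chr7:25687002-25705077, all on the plus strand. Il1a overlaps the gene Gm14023 and Il1b the antisense gene Il1bos, both on the opposite strand. The library protocol names a directional and a non-directional option without saying which was used, so reads from these overlaps cannot be told apart. Gm14023 had 1 to 18 counts and Il1bos 1 to 16 counts in the libraries of the first experiment. Ltb also overlaps the microRNA gene Mir6973a (4 to 67 counts there) and Lta the microRNA gene Mir6974 (0 counts), both on the same strand.

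Promoter sequences were available from RefSeq (GRCm38.p6) for Il1a, Il1b, Il6, Tnf, Lta, Ltb, Il12a and Tgfb1. The 250 bases before the transcription start are shown for Il6, Il1b and Tnf, inflammatory genes that rose with LPS, and for Tgfb1, which rose with DSF. They are written 5′ to 3′ on the strand of the gene, with capitals marking matches to any of 4 motifs on either strand: the NF-κB (kB) motif, the AP-1 motif TGANTCA, the C/EBP motif TTNNGNAAT and the TATA motif TATAAA.
Il6 (chr5:30012864-30013113, strand +): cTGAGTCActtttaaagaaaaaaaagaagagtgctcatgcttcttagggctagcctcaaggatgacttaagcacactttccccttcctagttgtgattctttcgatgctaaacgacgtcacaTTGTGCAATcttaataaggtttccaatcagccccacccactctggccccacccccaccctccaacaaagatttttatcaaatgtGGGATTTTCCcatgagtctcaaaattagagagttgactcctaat
Il1b (chr2:129371140-129371389, strand -): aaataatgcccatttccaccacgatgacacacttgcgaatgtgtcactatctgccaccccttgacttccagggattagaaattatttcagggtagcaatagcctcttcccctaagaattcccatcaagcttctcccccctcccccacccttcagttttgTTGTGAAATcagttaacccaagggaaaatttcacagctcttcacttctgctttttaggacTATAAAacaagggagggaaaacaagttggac
Tnf (chr17:35202008-35202257, strand -): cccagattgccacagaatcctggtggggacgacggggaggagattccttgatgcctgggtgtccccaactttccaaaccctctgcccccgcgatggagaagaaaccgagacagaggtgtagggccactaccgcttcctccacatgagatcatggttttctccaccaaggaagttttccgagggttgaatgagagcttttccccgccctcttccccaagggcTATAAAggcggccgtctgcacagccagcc
Tgfb1 (chr7:25686752-25687001, strand +): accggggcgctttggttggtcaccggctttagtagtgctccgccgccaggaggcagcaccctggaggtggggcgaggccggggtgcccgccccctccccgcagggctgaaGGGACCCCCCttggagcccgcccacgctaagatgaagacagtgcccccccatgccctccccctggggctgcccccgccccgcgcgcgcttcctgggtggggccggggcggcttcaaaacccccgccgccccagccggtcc
In the Il6 promoter, a kB match began at position -44 counted from the start, a C/EBP match at -128 and an AP-1 match at -249. The Il1b promoter held a TATA match at -31 and a C/EBP match at -91, and the Tnf promoter a TATA match at -29. Tgfb1 had no TATA match in this window, had a kB match at -140 and was rich in G and C (75.2% against a median of 52.4% over 32851 promoters). Among those 32851 windows of equal length, the kB motif was found in 7.25%, the AP-1 motif in 6.75%, the C/EBP motif in 10.2% and the TATA motif in 12.4%. The TATA motif was present in 4 of the 8 cytokine genes with a promoter sequence (Il1a, Il1b, Lta and Tnf), the kB motif in 3 (Il6, Ltb and Tgfb1) and the AP-1 and C/EBP motifs in 2 each. The AP-1 motif was in Il1a and Il6 and the C/EBP motif in Il1b and Il6, whereas Il12a had no match to any of the 4. The matches describe these letters only and overlap between motifs in none of the 4 sequences shown.

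In unstimulated B cells, the membrane lymphotoxin subunit Ltb was the most abundant of the 9 mRNAs (271 ± 106 FPKM, mean ± SD, n = 4), followed by Tgfb1 (53.7 ± 2.38 FPKM). Lta, Il12a, Il1b and Tnf came next, with means between 7.21 and 15.8 FPKM, and each overlapped its neighbour in the order. Il10 (1.33 ± 1.22 FPKM), Il1a (0.516 ± 0.338 FPKM) and Il6 (0.0985 ± 0.109 FPKM) were lowest and also overlapped. Il6 rested on 16, 7, 0 and 2 counts in the 4 libraries, and a count of 0 allows up to 3 counts. With LPS the order was Ltb, Tnf, Il1b, Tgfb1, Il10, Lta, Il12a, Il6 and Il1a, and no 2 neighbours overlapped. Tnf, at 125 ± 5.63 FPKM, had thereby come close to Ltb (136 ± 3.37 FPKM). With LPS and DSF, Tnf (209 ± 10.5 FPKM) and Tgfb1 (108 ± 2.67 FPKM) were the highest, and Il10 and Lta, as well as Il12a and Il6, overlapped. With IL-4+anti-CD40, Ltb (67.6 ± 7.81 FPKM) and Tgfb1 (49.4 ± 3.64 FPKM) led, and with DSF added Tgfb1 (88.2 ± 1.90 FPKM) stood above Ltb (52.3 ± 3.08 FPKM).

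**Figure D1:**
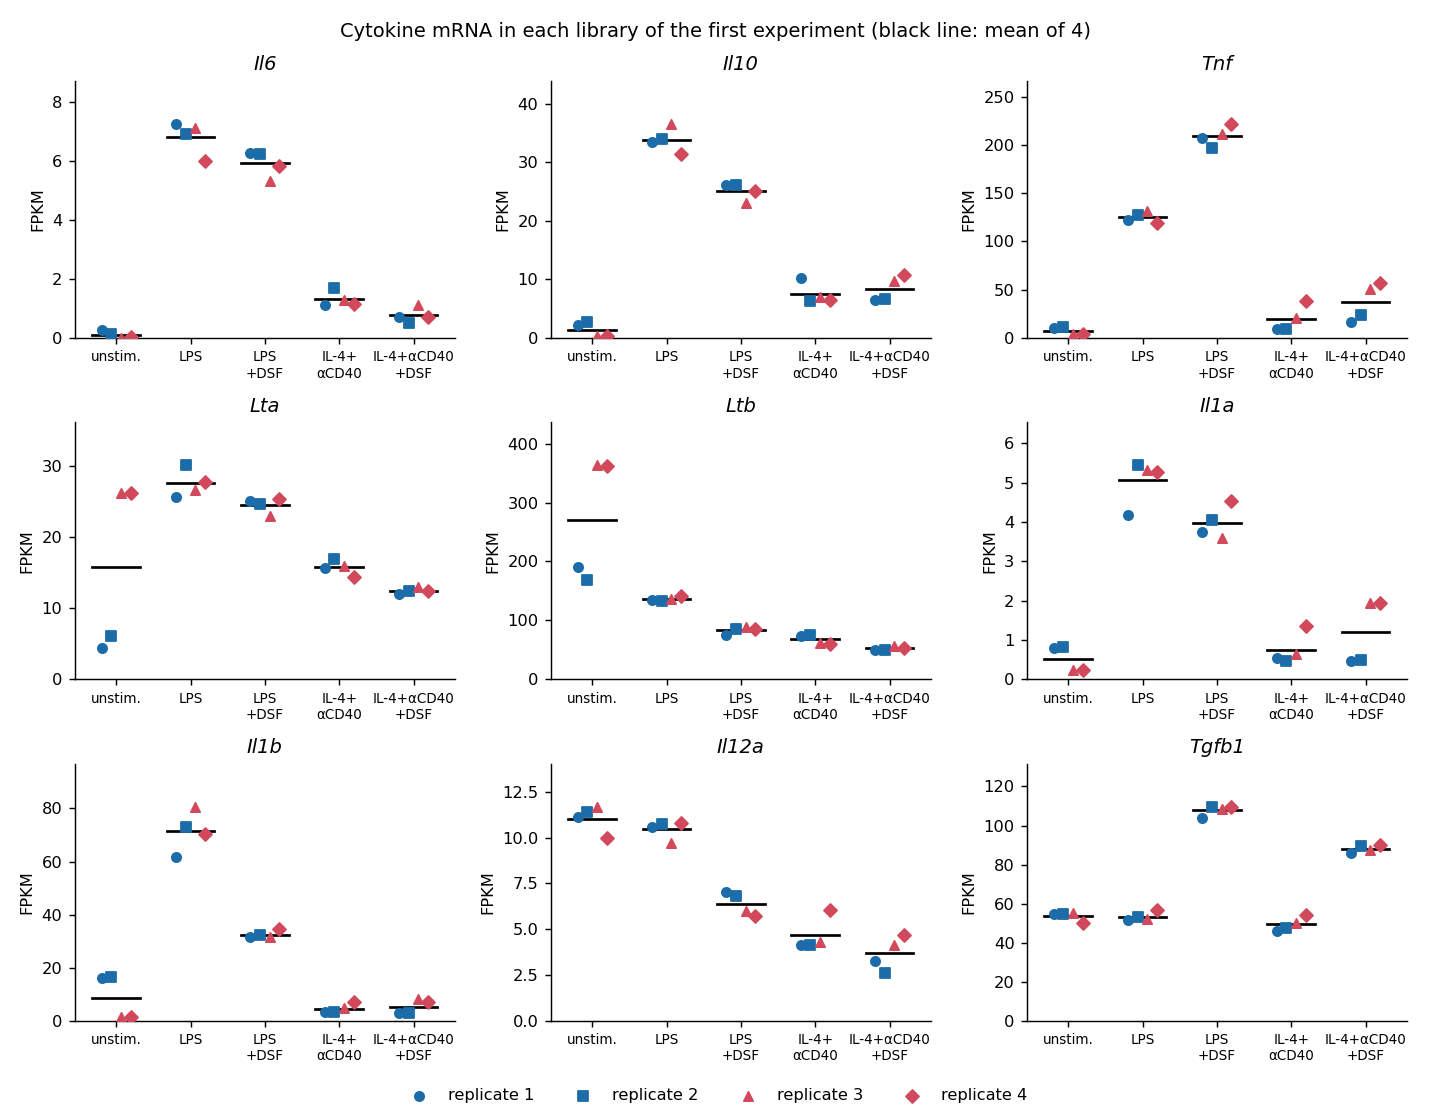
FPKM (vertical axis, linear, from 0) of each cytokine gene in each library of the first experiment, by group (horizontal axis), with replicates 1 and 2 in blue, replicates 3 and 4 in red and a black line at the mean of 4. The LPS libraries of Il1b (61.6 to 80.7 FPKM) lie above all others, Tgfb1 rises only in the groups with DSF, and the unstimulated libraries separate into 2 pairs for Lta, Ltb, Il1a, Il1b, Il10 and Tnf.

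LPS induced the inflammatory cytokines and Il10. Compared with unstimulated B cells, 5 of the 9 genes rose (Il6, Il10, Tnf, Il1a and Il1b) and 1 fell (Ltb), against 29.6% and 33.3% of 14477 genes tested (edgeR's quasi-likelihood test, Benjamini-Hochberg adjusted p under 0.05, 4 against 4 libraries). The median log2 fold change was 3.06 over the 9 genes and -0.05 over all genes tested. Il6, which supports plasma cells and T follicular help, had 7.25, 6.92, 7.09 and 5.98 FPKM with LPS against 0.247, 0.111, 0 and 0.0361 FPKM without, a log2 fold change of 6.05 ± 0.53 (adjusted p = 2.00e-05) with a 95% interval of 4.86 to 7.25. Tnf had 9.97, 10.7, 4.11 and 4.12 FPKM in unstimulated libraries and 122, 128, 131 and 119 FPKM with LPS, and rose by 4.13 ± 0.33 (adjusted p = 1.33e-05) on the log2 scale. All 4 LPS libraries lay above all unstimulated ones for both genes. Against unstimulated replicates 1 and 2 alone, Il6 rose by 5.25 and Tnf by 3.62, and Tnf rose by 4.95 against replicates 3 and 4 alone, where Il6 rested on 0 and 2 counts.

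The interleukin-1 genes encode ligands of the same receptor, IL-1α as an active precursor and IL-1β as a precursor that needs cleavage. Il1b had 61.6, 73.2, 80.7 and 70.5 FPKM with LPS and a log2 fold change of 3.06 ± 0.79 (adjusted p = 0.00836), and Il1a had 0.797, 0.819, 0.225 and 0.222 FPKM in unstimulated and 4.17, 5.44, 5.33 and 5.27 FPKM in LPS-stimulated B cells, with 3.29 ± 0.41 (adjusted p = 1.42e-04). The size of these changes turned on the unstimulated pair. Il1b rose by 2.17 against replicates 1 and 2 alone and by 5.86 against replicates 3 and 4 alone, both with n = 2 unstimulated libraries and edgeR adjusted p of 1.46e-17 and 2.10e-20. These p-values leave out the spread between the unstimulated pairs. Il1a rose by 2.67 and 4.51. The direction of both was therefore kept in either pair.

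Il10, the main anti-inflammatory cytokine of regulatory B cells, reached 33.6, 34.00, 36.6 and 31.4 FPKM with LPS and rose by 4.66 ± 0.58 (adjusted p = 1.46e-04) in edgeR, or by 3.86 and 6.88 against either unstimulated pair. Tgfb1 had 54.6, 54.8, 55.3 and 50.2 FPKM in unstimulated and 51.5, 52.9, 52.2 and 56.4 FPKM in LPS-stimulated B cells, a log2 fold change of 0.00 with an interval of -0.13 to 0.13. Of the regulatory cytokines, Il10 thus rose and Tgfb1 did not pass the test. Il12a, which encodes the p35 subunit shared by IL-12 and IL-35, had 11.1, 11.4, 11.7 and 9.97 FPKM in unstimulated and 10.6, 10.8, 9.70 and 10.8 FPKM in LPS-stimulated B cells, and its log2 fold change was -0.06 with an interval of -0.24 to 0.11. When libraries were scaled by total counts, the log2 fold changes of this comparison shifted by a median of -0.23, and Tgfb1 (-0.22, edgeR adjusted p = 0.0123) and Il12a (-0.29, adjusted p = 0.0110) then passed as lower, which made 5 higher and 3 lower genes.

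Beside Tnf, the lymphotoxin genes gave other values. Ltb fell from 191, 168, 363 and 362 FPKM to 134, 133, 137 and 140.5 FPKM with LPS, a log2 fold change of -0.99 ± 0.26 (adjusted p = 0.00908). Against replicates 1 and 2 alone it fell by 0.37 and against replicates 3 and 4 alone by 1.39 on the log2 scale. Lta, whose product forms a soluble homotrimer or joins Ltb on the membrane, had 25.7, 30.2, 26.7 and 27.8 FPKM with LPS, and its log2 fold change of 0.81 ± 0.54 did not pass the test (edgeR adjusted p = 0.219). For Lta the unstimulated pair decided the call: the log2 fold change was 2.43 against replicates 1 and 2 (adjusted p = 7.27e-16) and 0.10 against replicates 3 and 4 (adjusted p = 0.219).

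With IL-4+anti-CD40, Il6 and Il10 rose and Ltb and Il12a fell. Against unstimulated B cells, 3 genes rose (Il6, Il10 and Tnf) and 2 fell (Ltb and Il12a), beside 30.4% and 32.1% of 14433 genes. The median log2 fold change of the 9 was 0.01, and that of all genes -0.04. Il6 had 1.12, 1.69, 1.29 and 1.16 FPKM and rose by 3.70 ± 0.64 (adjusted p = 8.88e-04) in edgeR, and Il10 had 10.3, 6.32, 6.90 and 6.52 FPKM and rose by 2.51 ± 0.64 (adjusted p = 0.00740). Every library stimulated with IL-4+anti-CD40 was above every unstimulated library for both. The size again turned on the unstimulated pair: Il10 rose by 1.66 against replicates 1 and 2 alone and by 4.71 against replicates 3 and 4 alone, and Il6 by 2.86 against replicates 1 and 2. With IL-4+anti-CD40 replicates 3 and 4 alone, Il10 no longer passed (2.38, adjusted p = 0.0595). With 1 library left out, Il6 rose by 3.27 to 4.67. Il12a fell from a mean of 11.04 to 4.65 FPKM, by 1.23 ± 0.14 on the log2 scale (adjusted p = 9.64e-05), and Ltb fell to 72.8, 75.7, 61.7 and 60.2 FPKM, by 1.99 ± 0.27 (adjusted p = 2.39e-04). Both falls were kept in either unstimulated pair, at -1.40 and -2.40 for Ltb and -1.27 and -1.20 for Il12a.

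Tnf with IL-4+anti-CD40 was uneven, at 9.11, 8.74, 20.9 and 37.7 FPKM in replicates 1 to 4. Its log2 fold change of 1.43 ± 0.52 (adjusted p = 0.0388) in edgeR was lost against unstimulated replicates 1 and 2 alone (0.90, adjusted p = 0.199) and when the IL-4+anti-CD40 libraries were replicates 1 and 2 alone (0.35, adjusted p = 0.532). It was also lost without any of 4 single libraries: unstimulated replicate 3 or 4 and IL-4+anti-CD40 replicate 3 or 4 (adjusted p of 0.0972, 0.0904, 0.0771 and 0.129). For Il1b, with 3.41, 3.22, 4.72 and 6.88 FPKM, the direction itself depended on the unstimulated pair: the log2 fold change was -0.90 ± 0.80 with all libraries, -1.82 against replicates 1 and 2 (adjusted p = 3.62e-04) and 1.88 against replicates 3 and 4 (adjusted p = 9.16e-04). The same held for Lta, with 0.01 ± 0.54, 1.60 and -0.71, where both pairs passed the test in opposite directions. Il1a (0.54 ± 0.52) and Tgfb1 (-0.10 ± 0.07) did not pass with all libraries, but Il1a passed against unstimulated replicates 3 and 4 (1.74, adjusted p = 0.0152). Scaling by total counts shifted this comparison by a median of -0.15, and Tgfb1 then passed as lower (-0.25, adjusted p = 0.0248) while Tnf (1.27, adjusted p = 0.0653) no longer passed.

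**Figure D2:**
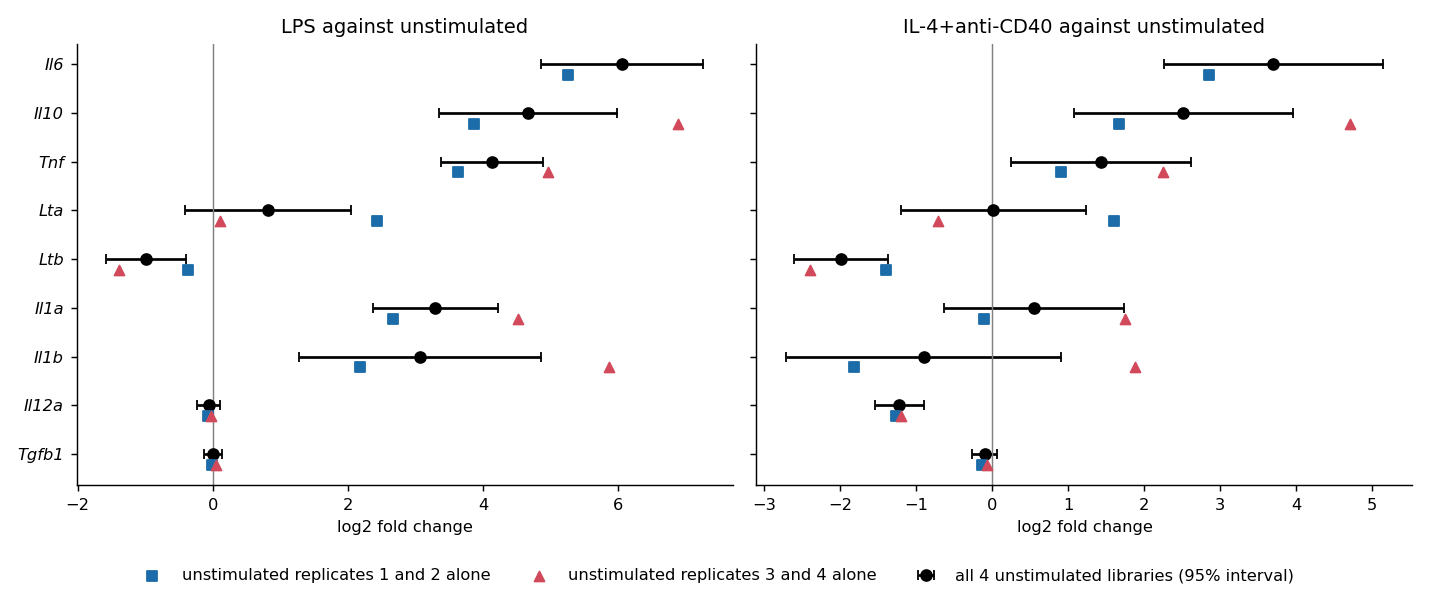
Log2 fold change (horizontal axis) of each cytokine gene against unstimulated B cells, for LPS on the left and IL-4+anti-CD40 on the right, with all 4 unstimulated libraries (black, bars are 95% intervals of the edgeR fit) and with unstimulated replicates 1 and 2 (blue squares) or 3 and 4 (red triangles) alone. Il12a and Tgfb1 hardly moved between the pairs, whereas Il1b went from -1.82 to 1.88 with IL-4+anti-CD40. Il6 is not drawn for replicates 3 and 4, which held 0 and 2 counts.

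Compared directly, without unstimulated libraries, LPS gave higher levels than IL-4+anti-CD40 for 8 of the 9 genes and lower levels for 0 (at an unadjusted p under 0.05 also 0), against 22.3% and 17.3% of 14078 genes. The largest difference was that of Il1b, at 4.02 ± 0.20 (adjusted p = 1.87e-08) on the log2 scale in edgeR, followed by Il1a (2.82 ± 0.26), Tnf (2.76 ± 0.38), Il6 (2.42 ± 0.13) and Il10 (2.22 ± 0.14). Il12a (1.22 ± 0.13), Ltb (1.06 ± 0.07) and Lta (0.86 ± 0.07) differed less, with adjusted p between 2.00e-07 and 1.06e-05. Lta lost its call when all 20 libraries shared 1 fit (adjusted p = 0.0849). Against IL-4+anti-CD40 replicates 1 and 2 alone, Tnf differed by 3.87 and Tgfb1 passed as higher as well (0.26, adjusted p = 8.01e-05), and against replicates 3 and 4 alone Tnf differed by 2.12. In each of these 8 genes the LPS libraries did not overlap the IL-4+anti-CD40 libraries, but the share of all genes without overlap was not counted. Tgfb1 differed by 0.16 ± 0.06 (adjusted p = 0.0603), and passed without IL-4+anti-CD40 replicate 4 (0.21, adjusted p = 0.00579).

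DSF moved the cytokine mRNAs of LPS-stimulated B cells in both directions. Tnf and Tgfb1 rose, and Il1b, Il12a, Ltb, Il10, Il1a and Lta fell, that is 2 higher and 6 lower of 9, against 35.1% and 36% of 14154 genes. The median log2 fold change was -0.32 for the 9 genes and 0.00 for all genes. Tnf had 122, 128, 131 and 119 FPKM with LPS and 207, 196, 211 and 222 FPKM with LPS and DSF, a rise of 0.76 ± 0.04 (adjusted p = 6.28e-14) on the log2 scale in edgeR. Tgfb1 went from 51.5, 52.9, 52.2 and 56.4 to 104, 109.7, 108 and 109.5 FPKM, a rise of 1.04 ± 0.04 (adjusted p = 2.38e-17). For both genes every library with DSF was above every library without it, although LPS by itself had raised only Tnf.

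Il1b was the member that fell furthest, from 61.6, 73.2, 80.7 and 70.5 FPKM to 31.6, 32.1, 31.6 and 34.6 FPKM, a log2 fold change of -1.12 ± 0.06 (adjusted p = 1.54e-14) in edgeR. Il12a fell from 10.6, 10.8, 9.70 and 10.8 to 7.02, 6.82, 5.97 and 5.74 FPKM (-0.69 ± 0.09, adjusted p = 1.67e-07) and Ltb from 134, 133, 137 and 140.5 to 75.3, 85.96, 88.8 and 84.8 FPKM (-0.68 ± 0.05, adjusted p = 9.92e-13). The groups did not overlap for these 3 genes, nor for Il10, which fell from 33.6, 34.00, 36.6 and 31.4 to 26.2, 26.1, 22.99 and 25.05 FPKM (-0.42 ± 0.06, adjusted p = 1.60e-06). Marginal zone and B-1 markers, of B cell subsets known for Il10, summed to 543 to 573 CPM with LPS and 670.1 to 722 CPM with DSF added. Il1a fell by less, with 3.74, 4.04, 3.58 and 4.53 FPKM after DSF, overlapping ranges and a log2 fold change of -0.32 ± 0.11 (adjusted p = 0.0135). Lta changed least, by -0.15 ± 0.06 (adjusted p = 0.0354), and lost the call in DESeq2 (adjusted p = 0.0651), without LPS replicate 2 (adjusted p = 0.0848) or without LPS and DSF replicate 3 (adjusted p = 0.102). Il6, at 6.28, 6.22, 5.30 and 5.83 FPKM with DSF, gave -0.19 ± 0.09 (adjusted p = 0.0583) and overlapped between the groups. Its adjusted p was 0.0104 without LPS replicate 4, 0.0408 without LPS and DSF replicate 1 and 0.0435 without replicate 2 of that group. Scaled by total counts, which shifted the comparison by a median of -0.21, Il6 passed as a lower gene too (-0.40, adjusted p = 2.92e-04), and all other directions were kept.

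These calls used the spread of the 8 libraries compared. When all 20 libraries shared 1 fit, whose spread includes the unstimulated libraries, Tgfb1 rose and Ltb and Il12a fell at nearly unchanged log2 fold changes (1.02, -0.70 and -0.71), while Tnf (edgeR adjusted p = 0.126), Il1b (0.0739), Il10 (0.248), Il1a (0.474) and Lta (0.717) no longer passed. The monocyte and macrophage markers summed to 182 to 196 CPM with LPS and DSF, close to the 176 to 200.1 CPM with LPS. Cd14 was at 34.5, 37.2, 41.1 and 40.9 CPM with LPS and 31.5, 35.4, 38.2 and 36.1 CPM with DSF added. Single markers did move: of the 9 tested, DSF raised 2 and lowered 3 (against 35.1% and 36% of all genes). The largest changes were those of Itgam, Fcgr1 and Cd68.

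In B cells stimulated with IL-4+anti-CD40, DSF raised Tgfb1 and lowered Il6, Ltb and Lta (1 higher and 3 lower of 9, beside 30.1% and 31.6% of 14275 genes). The median log2 fold change of the 9 genes was 0.14 and that of all genes -0.02. Tgfb1 went from 45.8, 47.4, 50.03 and 54.2 to 86.02, 89.5, 87.2 and 90.01 FPKM without overlap, a rise of 0.82 ± 0.06 (adjusted p = 1.47e-06) on the log2 scale in edgeR. Il6 fell from 1.12, 1.69, 1.29 and 1.16 to 0.717, 0.487, 1.11 and 0.706 FPKM (-0.81 ± 0.24, adjusted p = 0.0115), on 35, 23, 59 and 38 counts with DSF. The lymphotoxin genes fell together, Lta from 15.7, 16.97, 15.99 and 14.5 to 12.05, 12.4, 13.01 and 12.4 FPKM (-0.36 ± 0.07, adjusted p = 0.00130) and Ltb from 72.8, 75.7, 61.7 and 60.2 to 50.3, 49.6, 56.4 and 52.9 FPKM (-0.39 ± 0.08, adjusted p = 0.00108). None of these 4 genes overlapped between the groups, but the share of all genes without overlap was not counted.

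For Tnf the libraries with DSF had 16.8, 23.7, 50.4 and 56.4 FPKM and those without 9.11, 8.74, 20.9 and 37.7 FPKM. The log2 fold change of 0.93 ± 0.48 did not pass with all 8 libraries (edgeR adjusted p = 0.117). Within replicates 1 and 2 of both groups it was 1.17 (adjusted p = 1.00e-07), and within replicates 3 and 4 it was 0.85 (adjusted p = 0.00123). Without IL-4+anti-CD40 replicate 4 alone it was 1.49 (adjusted p = 0.00786). In each pair both libraries with DSF were thus above both without. Il10 had 10.3, 6.32, 6.90 and 6.52 FPKM without and 6.42, 6.67, 9.77 and 10.7 FPKM with DSF, a log2 fold change of 0.14 ± 0.20 that was -0.36 within replicates 1 and 2 (adjusted p = 0.0947) and 0.59 within replicates 3 and 4 (adjusted p = 0.00305). Il1a (0.70 ± 0.51), Il1b (0.21 ± 0.35) and Il12a (-0.36 ± 0.19) did not pass with all libraries. With DSF, Il1a was at 0.454, 0.495, 1.94 and 1.94 FPKM and Il1b at 3.03, 2.91, 8.14 and 7.17 FPKM, higher in replicates 3 and 4. Of the myeloid markers in these libraries, Cd14 was at 11.6, 15.97, 28.6 and 27.8 CPM and also higher in replicates 3 and 4, whereas Lyz2 (155, 131, 119.7 and 105 CPM) and Csf1r (68.2, 65.03, 46.6 and 45.1 CPM) were lower there, and the whole monocyte and macrophage list summed to 293 CPM on average in replicates 1 and 2 and 253 CPM in replicates 3 and 4. The falls of Il6, Lta and Ltb no longer passed within replicates 3 and 4 alone (adjusted p = 0.197, 0.0560 and 0.0528), where 4 genes rose (Il10, Tnf, Il1a and Tgfb1) and 0 fell. Within replicates 1 and 2, Tnf and Tgfb1 rose and Il6, Lta, Ltb and Il12a fell. In the fit of all 20 libraries, Lta (adjusted p = 0.519) and Ltb (0.140) lost the call and Il6 (0.0417) and Tgfb1 kept it. Monocyte and macrophage markers summed to 184 to 208 CPM with IL-4+anti-CD40 and 246 to 304 CPM with DSF added, and their part in these values was not tested.

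Whether DSF acted differently under the 2 stimuli was tested as the difference between both log2 fold changes. Il1b differed by -1.35 ± 0.34 (adjusted p = 0.0102) in edgeR, since it fell by 1.12 under LPS and changed by 0.21 under IL-4+anti-CD40. Ltb differed by -0.30 ± 0.10 (adjusted p = 0.0460), with falls of 0.68 and 0.39. These were 2 lower members and 0 higher ones, while 6.96% and 7.92% of 15130 genes passed, and 3 members (Il6, Lta and Tgfb1) had higher differences at an unadjusted p under 0.05. The call of Ltb was close to the threshold and was lost without 12 of the 16 libraries taken 1 at a time (adjusted p up to 0.0981). In the fit of all 20 libraries neither difference passed (adjusted p = 0.338 for Il1b and 0.453 for Ltb). For the other members the difference did not pass: Il6 0.62 ± 0.23, Il10 -0.57 ± 0.21, Tnf -0.18 ± 0.50, Lta 0.21 ± 0.09, Il1a -1.05 ± 0.49, Il12a -0.35 ± 0.21 and Tgfb1 0.22 ± 0.07. Their 95% intervals were wide for several, such as -1.22 to 0.87 for Tnf and -2.07 to -0.02 for Il1a. With replicates 3 and 4 alone of the IL-4+anti-CD40 groups, the counts were 1 higher (Tgfb1) and 4 lower (Il10, Ltb, Il1a and Il1b).

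**Figure D3:**
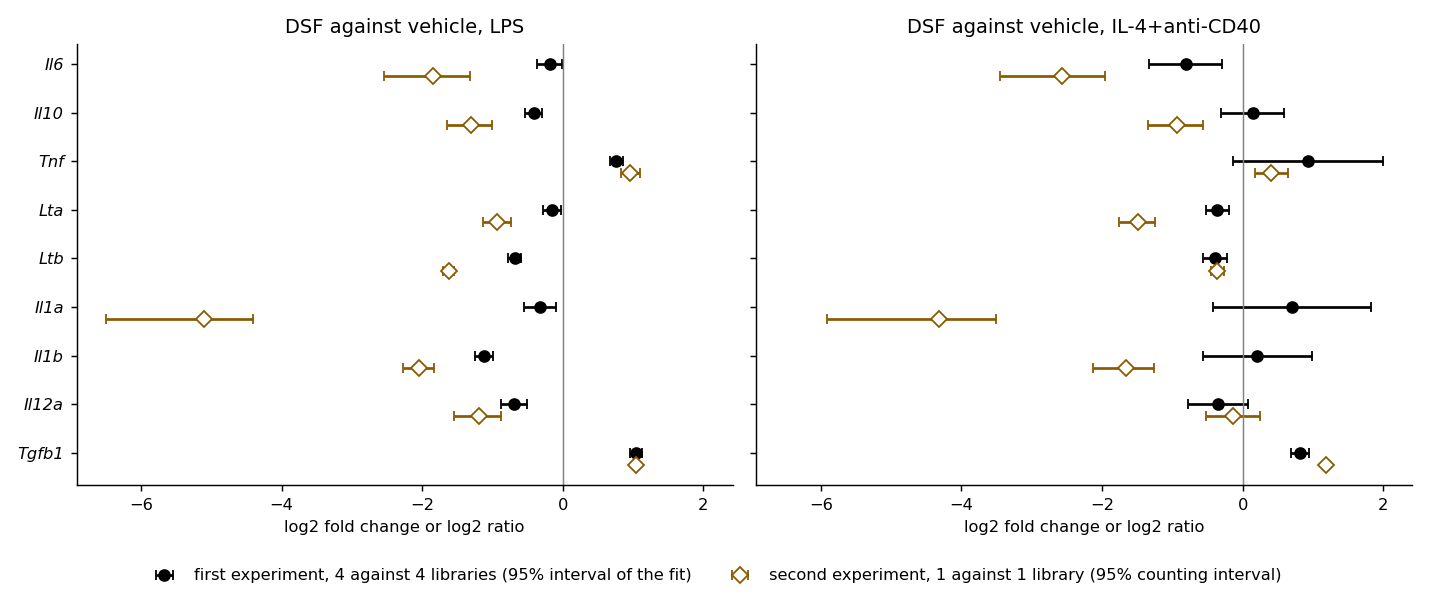
Log2 fold change or log2 ratio of each cytokine gene with DSF against the same stimulus without it (horizontal axis), for LPS on the left and IL-4+anti-CD40 on the right. Black circles show the first experiment (bars are 95% intervals of the edgeR fit, 4 against 4 libraries) and open diamonds the second (bars are 95% counting intervals of 1 against 1 library). Tgfb1 is to the right of 0 in all 4 comparisons, and Il1a lies between -1 and 1 in the first experiment and below -4 in the second.

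Set against unstimulated B cells, LPS with DSF still left 6 members higher (Il6, Il10, Tnf, Il1a, Il1b and Tgfb1) and 2 lower (Ltb and Il12a), beside 34.3% and 37.3% of 14663 genes. Tnf was 4.86 ± 0.35 above unstimulated B cells on the log2 scale, Il6 5.84 ± 0.53, Il10 4.22 ± 0.58, Il1a 2.93 ± 0.41 and Tgfb1 1.01 ± 0.06. Il1b was 1.91 ± 0.76 above (edgeR adjusted p = 0.0465), a call that was lost without unstimulated replicate 3 or 4 or any 1 of the LPS and DSF libraries, and by total counts (1.48, adjusted p = 0.108), with adjusted p without a library between 0.0536 and 0.0860. Against unstimulated replicates 1 and 2 and replicates 3 and 4 alone, Il1b was at 0.98 and 4.68 and passed in both, Il10 at 3.37 and 6.41, Il1a at 2.27 and 4.13, Tnf at 4.32 and 5.66 and Ltb at -1.13 and -2.12. Lta was at 2.20 and -0.11 and passed only against replicates 1 and 2. IL-4+anti-CD40 with DSF left 4 higher (Il6, Il10, Tnf and Tgfb1) and 2 lower (Ltb and Il12a), beside 33.4% and 35.3% of 14678 genes. There Ltb was lowest relative to unstimulated B cells, at -2.37 ± 0.27 (adjusted p = 5.94e-05). Against the same pairs alone, Il10 was at 1.81 and 4.85, Tnf at 1.83 and 3.17 and Ltb at -1.79 and -2.79, all past the threshold, while Il1b (-1.61 and 2.09) and Lta (1.23 and -1.08) passed in opposite directions and Il1a (0.58 and 2.44) passed only against replicates 3 and 4. When the group given both IL-4+anti-CD40 and DSF was reduced to replicates 1 and 2, Il6 (2.58, adjusted p = 0.0571) and Il10 (2.30, adjusted p = 0.0605) no longer passed. These comparisons share their unstimulated libraries with those of the stimuli alone.

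In the second experiment each condition had 1 library, so differences have no replicate check, and a log2 ratio of 1 or more in size (2-fold) was used to describe them. The intervals given cover counting error only. LPS raised Il6, Il10, Tnf, Lta and Il1b past 2-fold relative to the unstimulated library (5 of 9, against 8.62% of 14275 genes) and lowered 0 (against 9.88%). Il6 had 10 counts unstimulated and 121 with LPS, a log2 ratio of 3.58 (2.91 to 4.94), Tnf 258 and 643 counts (1.55) and Il1b 298 and 967 counts (1.93). IL-4+anti-CD40 had Il6, Il10 and Lta past 2-fold higher (against 10.7%) and Il12a lower (against 13.7%). Il6 reached 148 counts with this stimulus, more than the 121 with LPS, whereas in the first experiment all LPS libraries were above all IL-4+anti-CD40 libraries. Il1a was already present without stimulus, at 8.03 FPKM, where the unstimulated libraries of the first experiment had at most 0.819 FPKM (the FPKM of both experiments were scaled separately). Monocyte and macrophage markers summed to 58.7 CPM in this unstimulated library and neutrophil markers to 1.63 CPM, with Ly6g, Mpo and Elane at 0. The part of myeloid cells in the Il1a level was not tested.

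DSF in LPS-stimulated B cells of the second experiment put 6 members past 2-fold lower (Il6, Il10, Ltb, Il1a, Il1b and Il12a, against 19.5% of genes) and Tgfb1 past 2-fold higher (against 20.3%). Il1a had 395 counts with LPS and 9 with DSF added, a log2 ratio of -5.11 (-6.49 to -4.41). This was the largest log2 ratio of the 9, beside the log2 fold change of -0.32 in the first experiment. The monocyte and macrophage markers summed to 43.5 CPM with LPS and 88.5 CPM with DSF added, of which the integrin subunit Itgam took 0.714 and 38.4 CPM. Lyz2 (7.47 and 14.2 CPM), Cd68 (10.3 and 16.5 CPM) and Cd14 (1.37 and 4.13 CPM) were higher with DSF and Vcam1 (8.41 and 1.06 CPM) and Mertk (1.37 and 0.354 CPM) lower, and the part of such cells was not tested. Il1b went from 967 to 217 counts (-2.04, -2.27 to -1.84), Il6 from 121 to 30 (-1.85, -2.54 to -1.32) and Ltb from 5460 to 1647 (-1.62, -1.71 to -1.55). Tgfb1 went from 8333 to 15964 counts (1.04, 1.00 to 1.08) and Tnf from 643 to 1166 (0.96, 0.82 to 1.10). For each of the 9 genes the sign was the same as in the first experiment under LPS, where Il6 did not pass the test. The share of all genes with the same sign was not counted.

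With IL-4+anti-CD40 in the second experiment, DSF put Il6, Lta, Il1a and Il1b past 2-fold lower (against 20.3%) and Tgfb1 past 2-fold higher (against 21.9%). Il1a had 217 counts without and 7 with DSF (-4.32, -5.91 to -3.51), Il6 148 and 18 (-2.57, -3.46 to -1.95), and Tgfb1 5897 and 10326 (1.19, 1.14 to 1.23). For Il1a, Il1b and Il10 the sign was opposite to that with all libraries of the first experiment, where none of the 3 passed the test. Tnf was 0.41 (0.18 to 0.64). Scaling by total counts put the median of all genes at -0.34 for DSF with LPS and -0.25 for DSF with IL-4+anti-CD40 and left Tgfb1 short of 2-fold under either stimulus.

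Ibrutinib was given at the same dose, and its libraries had the same time of 3 h. Under LPS no member passed 2-fold in either direction (against 2.81% higher and 2.47% lower of 14275 genes), and under IL-4+anti-CD40 Il12a alone was past 2-fold higher and 0 were lower (against 2.23% and 1.69%). Il12a had 140 counts with vehicle, 484 with ibrutinib (1.28, 1.02 to 1.57) and 98 with DSF (-0.13, -0.52 to 0.25). Il1b under LPS had 967 counts with vehicle, 2394 with ibrutinib (0.92, 0.81 to 1.03) and 217 with DSF. Thus DSF and ibrutinib libraries lay on opposite sides of the vehicle library for Il1b, as they did for Il1a, Ltb and Il12a, where ibrutinib gave 0.69, 0.42 and 0.91 under LPS and 0.70, 0.81 and 1.28 under IL-4+anti-CD40. Tgfb1 was -0.27 and -0.41 with ibrutinib, opposite in sign to DSF. Il10 was lower with either drug, at -0.62 and -0.93 with ibrutinib and -1.31 and -0.94 with DSF. With 1 library each, these differences between the drugs were not tested. The B cell markers summed to 4482, 3744 and 5682 CPM in the LPS libraries with vehicle, DSF and ibrutinib. The dendritic cell markers summed to 111, 63.8 and 125 CPM in these libraries, of which Zbtb46 by itself took 93.1, 42.8 and 108 CPM. In the first experiment their sum went the other way, from 60.2 to 65.6 CPM with LPS to 86.4 to 91.2 CPM with DSF added. Of the 5 tested there, DSF raised 1 and lowered 3 (against 35.1% and 36% of all genes).

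**Figure D4:**
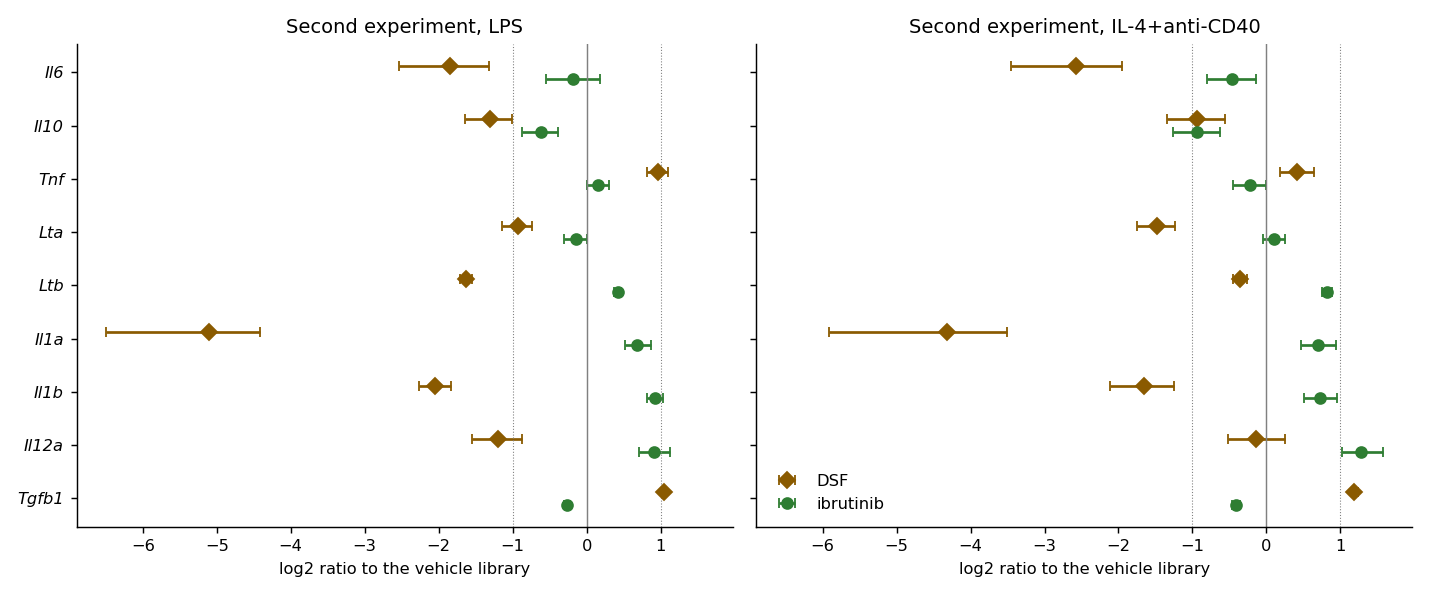
Log2 ratio to the vehicle library of the same stimulus (horizontal axis) for each cytokine gene in the second experiment, for LPS on the left and IL-4+anti-CD40 on the right. Diamonds are DSF, circles ibrutinib, bars are 95% counting intervals of 1 against 1 library, and dotted lines mark 2-fold. Il1a, Il1b and Ltb lie left of 0 with DSF and right of 0 with ibrutinib, and Tgfb1 the other way round.

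Receptors of these cytokines were counted next. Of 16 receptor genes and antagonists tested, DSF raised 10 and lowered 3 in LPS-stimulated B cells (edgeR, same threshold, against 35.1% and 36% of all genes tested), and raised 10 and lowered 1 with IL-4+anti-CD40 (against 30.1% and 31.6%), with medians of 0.39 and 0.58 on the log2 scale. The largest changes by DSF under LPS were those of Tgfbr3 (2.18 ± 0.42), a co-receptor of TGF-β, Il6ra (1.06 ± 0.08), the IL-6 receptor, and Il6st (0.92 ± 0.05), its signalling subunit gp130. Under IL-4+anti-CD40 they were the decoy receptor Il1r2 (1.65 ± 0.12), Tgfbr3 (1.56 ± 0.33) and Tgfbr2 (0.91 ± 0.10). LPS itself raised 3 and lowered 8 of the 16 (against 29.6% and 33.3%), and the largest rise was that of the interleukin-1 antagonist Il1rn (4.85 ± 0.62), which IL-4+anti-CD40 raised as well (2.43 ± 0.70).

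Among 15 genes for release and activation of the cytokine proteins, 12 had enough counts to be tested. DSF raised 7 and lowered 3 of them under LPS and raised 7 and lowered 4 under IL-4+anti-CD40, beside the shares of all genes given above (35.1% and 36% under LPS, 30.1% and 31.6% under IL-4+anti-CD40), with medians of 0.15 and 0.53. Rhbdf2, which brings the TNF sheddase ADAM17 to the cell surface, rose by 1.47 ± 0.05 and 1.60 ± 0.22 on the log2 scale. Furin, which cleaves the TGF-β precursor, rose by 0.87 ± 0.04 under LPS, and Itgb8, an integrin subunit that activates latent TGF-β, fell there by 1.83 ± 0.24. Nlrp3, the inflammasome sensor upstream of caspase-1, rose by 1.32 ± 0.34 under IL-4+anti-CD40. Lrrc32, which docks latent TGF-β at the cell surface, rose by 3.16 ± 0.37 with LPS alone, and by 4.00 ± 0.37 when B cells received IL-4+anti-CD40.

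Transcription and mRNA decay regulators were counted too. The shares of all genes raised and lowered by DSF were 35.1% and 36% under LPS and 30.1% and 31.6% under IL-4+anti-CD40, and most of the counts here were near them. Of 26 regulators of transcription, DSF raised 12 and lowered 8 under LPS and raised 9 and lowered 7 under IL-4+anti-CD40, and medians were 0.09 and 0.03. The stress factor Atf3 changed most, by 2.86 ± 0.05 and 2.47 ± 0.20, and the AP-1 subunit Fosb rose by 2.55 ± 0.12 and 1.73 ± 0.34. Without DSF, 17 of the 26 rose with LPS (against 29.6% of all genes), led by Nfkbiz (4.20 ± 0.21), which encodes the nuclear NF-κB cofactor used by the Il6 gene. Of 13 decay regulators, DSF raised 5 and lowered 3 under LPS and raised 4 and lowered 5 under IL-4+anti-CD40. Zfp36, which encodes tristetraprolin, a protein that destabilizes Tnf mRNA, rose by 0.90 ± 0.04 and 0.66 ± 0.06, whereas its relative Zfp36l1 fell by 1.18 ± 0.04 and 1.53 ± 0.11.

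Of 44 other cytokine genes, 23 had enough counts to be tested with LPS, of which 17 rose and 3 fell (against 29.6% and 33.3% of all genes), and 16 with IL-4+anti-CD40, of which 3 rose and 5 fell (against 30.4% and 32.1%). A gene almost silent in unstimulated B cells had enough counts only where the stimulus raised it. The number that rose therefore depends on this filter and is no test of these genes. Il27 rose by 5.68 ± 0.37 with LPS and Il12b, the partner of Il12a in IL-12, by 5.62 ± 0.53. With DSF, 4 rose and 8 fell of 23 under LPS (against 35.1% and 36%), and 3 rose and 4 fell of 18 under IL-4+anti-CD40 (against 30.1% and 31.6%), shares that were near or below those of all genes. Cd70, a ligand of the TNF family, fell by 2.67 ± 0.54 under LPS, and Tnfsf8 (CD30 ligand) fell by 1.14 ± 0.22 and 1.00 ± 0.29 under LPS and IL-4+anti-CD40. Among 7 genes beside Tnf, Lta and Ltb, DSF raised 1 and lowered 2 under LPS, with the largest change at Lst1 (-0.44 ± 0.18), and lowered 1 (Prrc2a, -0.23 ± 0.07) and raised 0 under IL-4+anti-CD40. Of 2 measured genes beside Il1a and Il1b, Ckap2l fell by 1.04 ± 0.21 and Slc20a1 rose by 0.40 ± 0.04 under LPS with DSF. Beside Il10, Fcmr, the IgM receptor, fell by 0.51 ± 0.05 with DSF under LPS and rose by 0.47 ± 0.06 under IL-4+anti-CD40.

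Across the 20 libraries of the first experiment, the 5 members that rose with LPS had Pearson's r between 0.79 and 0.96 with each other. Pearson's r of log2 CPM was 0.96 between Il6 and Il10, 0.95 between Tnf and Il1a, 0.94 between Il1a and Il1b and 0.89 between Il6 and Tnf. Ltb and Il12a had 0.85, while Tnf and its neighbour Ltb had -0.32 and Tgfb1 had at most 0.58 with any other member (Tnf). These values describe 20 points that share 5 conditions and are not tests. The genes whose pattern was most like that of each member among 14426 genes (mean count of 10 or more) were Sec23b (0.98), Myc (0.98) and Tomm70a (0.98) for Il6, D16Ertd472e (0.98), Tmed5 (0.98) and Il1rn (0.98) for Il10 and Heatr9 (0.98), Casp4 (0.98) and Cxcl10 (0.97) for Tnf, each with r in parentheses. For the interleukin-1 genes they were Cxcl10 (0.97), Ccl5 (0.96) and Ccrl2 (0.96) for Il1a and Dtx4 (0.98), Zbtb32 (0.97) and Ptger4 (0.96) for Il1b. Cxcl10, a chemokine, was thus near both Tnf and Il1a. For the lymphotoxins they were Serpina3g (0.96), Gimap5 (0.93) and Serpina3f (0.87) for Lta and Sesn3 (0.99), Ptk2b (0.99) and Iglv1 (0.98) for Ltb, and for the remaining members Dbnl (0.95), Cnp (0.95) and Pid1 (0.95) for Il12a and Chm (0.99), Pi4k2b (0.98) and Smc5 (0.98) for Tgfb1.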

How the data were processed

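RNA of splenic B cells was sequenced after poly-A selection in 27 libraries, 20 of the first and 7 of the second experiment. Per the labels, reads were aligned to mm10 with HISAT2 2.0.5 and counted per gene with featureCounts 1.5.0-p3. The deposited tables hold raw read counts per gene and FPKM values made by the authors. The strand setting and the annotation release are not given in the sources used here. Counts were tested with edgeR 4.0.16 in R 4.3.3: quasi-likelihood test, TMM scaling, filterByExpr, only the groups compared, and Benjamini-Hochberg adjustment over all genes tested with a threshold of 0.05. Log2 fold changes are given ± SE. FPKM gave levels only. Overlap between groups was looked at in the 9 genes only, without its share over all genes. The second experiment was described by log2 ratios of CPM (prior count 2, mean of at least 10 counts) with 95% counting intervals. Alternatives were DESeq2 1.42.0, 2 other scalings, 2 other filters, all 20 libraries together, a replicate block and leaving out each library. The fits were tested on simulated data. The 9 genes and all gene lists were chosen with earlier results of these data known. From other lists, at most the 3 genes with the largest called change per comparison are named. Replicate pairs 1 and 2 or 3 and 4 alone were added after seeing the data. 1 gene of the planned marker lists is not reported here. No columns of other samples were present.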

Additional observations from a re-analysis of the deposited data

Results flagged for a closer look

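In 4 of 45 groups of 4 libraries, the end library stood apart from the other three by more than Dixon's 95% limit, where chance gives about 1 in 20. Il10 with IL-4+anti-CD40 was highest in replicate 1, at 10.3 FPKM. Il12a with the same stimulus was highest in replicate 4, at 6.06 FPKM. Il1a with LPS was lowest in replicate 1, at 4.17 FPKM, and Tgfb1 in unstimulated B cells was lowest in replicate 4, at 50.2 FPKM.

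The log2 effect of DSF differed between the stimuli for Il1b, by -1.35 (LPS minus IL-4+anti-CD40), and for Ltb, by -0.30, by the edgeR interaction test.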

How the results depend on the processing

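Of 504 log2 fold changes recomputed under planned settings other than leaving out a library, 464 kept their direction and side of the threshold, as did 599 of 648 when 1 library was left out. The cause of the changes was not tested unless fewer libraries made them.

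Counts of called cytokine genes moved by over 1.5 times in these cases. For LPS against unstimulated, 3 were lower by total counts (reported 1), and for IL-4+anti-CD40 against unstimulated 5 were higher against replicates 3 and 4 (reported 3). With all 20 libraries in 1 fit, DSF under LPS gave 1 higher and 2 lower (reported 2 and 6), DSF under IL-4+anti-CD40 gave 1 lower (reported 3) and the difference between stimuli 0 lower (reported 2, edgeR). DSF under IL-4+anti-CD40 gave 2 higher with any count or replicates 1 and 2, 4 higher and 0 lower with replicates 3 and 4, and 1 to 2 higher when 1 library was left out (reported 1). IL-4+anti-CD40 with DSF against unstimulated gave 2 higher with DSF replicates 1 and 2 (reported 4). The difference between stimuli gave 1 higher with DESeq2, a mean of at least 10 counts or either pair (reported 0), 4 lower with any count or replicates 3 and 4, and 0 to 1 higher and 1 to 3 lower with 1 library left out. In the second experiment, total counts gave 2 lower for IL-4+anti-CD40 against unstimulated (reported 1) and 0 higher for DSF under either stimulus (reported 1), and a mean of at least 50 counts 2 higher for DSF with LPS.

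Same-numbered libraries did not deviate together in every pair (r from -0.07 to 0.20), so the numbers were not taken to pair them. With the replicate block, DSF under IL-4+anti-CD40 gave 2 higher, the difference between stimuli 1 higher and 1 lower, and Lta with IL-4+anti-CD40 and DSF against unstimulated was 0.072.

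Directions turned as follows. Tgfb1, LPS against unstimulated: -0.22 by total counts, -1.64e-04 with any count, -0.011 against replicates 1 and 2, and -0.022 to 0.028 with 1 library left out. Lta, IL-4+anti-CD40 against unstimulated: -0.11 by total counts, -0.034 with all 20 libraries, -0.71 against replicates 3 and 4, and -0.30 to 0.39 with 1 left out. In that comparison Il1a was -0.12 against replicates 1 and 2, Il1b 1.88 against replicates 3 and 4 and Tgfb1 0.011 with IL-4+anti-CD40 replicates 3 and 4. DSF under IL-4+anti-CD40: Il10 -0.010 by total counts and, with replicates 1 and 2, Il10 -0.36, Il1a -0.095 and Il1b -0.17, and Il1b -0.074 to 0.47 with 1 left out. Lta, LPS with DSF against unstimulated: -0.11 against replicates 3 and 4. IL-4+anti-CD40 with DSF against unstimulated: Lta 1.23 against replicates 1 and 2 and -0.66 to 0.012 with 1 left out, Il1b 2.09 against replicates 3 and 4, and Il1a -0.11 with DSF replicates 1 and 2. Tnf, difference between stimuli: -0.74 to 0.10 with 1 left out. By FPKM, Tnf and Lta changed places in the order with IL-4+anti-CD40 when medians were used.

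Depth limits Il6 in unstimulated and IL-4+anti-CD40 libraries and Il1a with DSF in the second experiment, which rest on few counts.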
